A study of Mus musculus with 24 samples.

Results

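The 10 genes described here carry peptides to the cell surface on MHC class I molecules. They were listed by name from the pathway, with earlier results of these data known, and make up 10 of the 55487 genes in the count table. *B2m* encodes beta-2 microglobulin, the light chain shared by class I molecules. *H2-K1* and *H2-D1* encode the classical heavy chains, which hold the peptide. *Tap1* and *Tap2* encode the transporter that moves peptides into the endoplasmic reticulum, and *Tapbp* encodes tapasin, which joins the transporter to empty class I molecules. *Psmb8*, *Psmb9*, and *Psmb10* encode the catalytic subunits of the immunoproteasome, the form of the proteasome that replaces the constitutive subunits encoded by *Psmb5*, *Psmb6*, and *Psmb7*. *Nlrc5* encodes the transactivator of class I genes. In hepatocytes, as in most nucleated cells, class I molecules show samples of internal proteins to cytotoxic T cells, and interferons are known to raise the whole set of genes.

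Gene expression was measured by BRB-seq, in which barcoded samples are pooled early and reads come only from the 3′ ends of messenger RNA, in 24 libraries of AML-12 cells. AML-12 is an established hepatocyte line from a mouse carrying a human TGF-alpha transgene. There were 6 groups of 4 libraries, all without a genetic deletion. The BSA group received the albumin carrier alone and the PAL group received 0.25 mM palmitate, a saturated fatty acid, and neither was transfected. The CON, BMAL1, CHREBP, and BOTH groups received 0.25 mM palmitate and were then transfected with esiRNA, a pool of short interfering RNAs cut by an endoribonuclease. The CON esiRNA, at 200 nM, was directed against *Egfp*, a gene that mouse cells lack. BMAL1 received 100 nM against the clock gene *Bmal1* (*Arntl* in the table), CHREBP received 100 nM against *Chrebp* (*Mlxipl*), which encodes a glucose-responsive transcription factor, and BOTH received the esiRNAs together at 200 nM in total. CON and BMAL1 libraries stood in column 2 of the library layout, CHREBP and BOTH in column 3, and BSA and PAL in column 1. *Chrebp* esiRNA and column therefore cannot be told apart in CHREBP or BOTH against CON or BMAL1, nor can transfection and column in CON against PAL. Within a column, BSA, CON, and CHREBP stood in rows A to D and PAL, BMAL1, and BOTH in rows E to H, so row position cannot be told apart from palmitate or from *Bmal1* esiRNA. In CON against PAL, row also cannot be told apart from transfection. CHREBP against CON and BOTH against BMAL1 were the only pairs compared in the same rows. The total esiRNA dose, 200 nM in CON and BOTH and 100 nM in BMAL1 and CHREBP, was equal only in BOTH against CON and in CHREBP against BMAL1. In the other comparisons of esiRNA groups, and in the interaction of the esiRNAs, the esiRNA and the total dose cannot be told apart. No source says that the replicates were separate cultures, so the p-values measure only the spread between these libraries, which may be technical.

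Most of the genes lie in or beside the major histocompatibility complex on mouse chromosome 17, all of them protein coding (GENCODE, mm10). The heavy chain genes are at chr17:33996017-34000347 (*H2-K1*, minus strand) and chr17:35262730-35267499 (*H2-D1*, plus). The processing genes *Psmb9* (chr17:34181987-34187764, minus), *Tap1* (chr17:34187553-34197225, plus), *Psmb8* (chr17:34197721-34201454, plus), and *Tap2* (chr17:34203527-34216321, plus) follow each other in 1 cluster, with *Tapbp* at chr17:33915899-33929292 (plus). *B2m* is at chr2:122147686-122153083 (plus), *Psmb10* at chr8:105935735-105938444 (minus), and *Nlrc5* at chr8:94434356-94527272 (plus).

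The upstream sequences of the class I heavy and light chains share several motif letters. The letters were chosen with earlier results of these data or the windows known, so the shares of windows below are descriptions. Class I promoters are known to combine an NF-kB site, an interferon-stimulated response element bound by IRF and STAT factors, and a composite element in which a CRE-like element (bound by CREB or ATF factors beside RFX) and a Y-box (an inverted CCAAT bound by NF-Y) form the platform for NLRC5. RefSeq windows of GRCm38.p6, from 250 bases before to 50 after a transcription start, were found for 8 of the 10 genes, with none for *Tap2* and *Nlrc5*. Motifs were searched on both strands as the letters AANNGAAA (interferon type), GGGANNNNCC (NF-kB), TGACG (CRE), ATTGG (Y-box), and TTCNNNGAA (GAS, the gamma-interferon-activated site). The bases before the start of *B2m* at chr2:122147437-122147685 (plus strand) and of *H2-K1* at chr17:34000348-34000597 (minus strand) are printed 5′ to 3′ from the C57BL/6J reference, not from the AML-12 line, with capitals marking, in order along the strand, the interferon-type and NF-kB matches (NF-kB first in *H2-K1*), the CRE, and the Y-box.
B2m: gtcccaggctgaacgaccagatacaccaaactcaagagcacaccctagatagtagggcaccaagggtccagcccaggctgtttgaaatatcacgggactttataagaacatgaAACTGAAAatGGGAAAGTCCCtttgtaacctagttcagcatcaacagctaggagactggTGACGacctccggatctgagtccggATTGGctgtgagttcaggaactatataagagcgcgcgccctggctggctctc
H2-K1: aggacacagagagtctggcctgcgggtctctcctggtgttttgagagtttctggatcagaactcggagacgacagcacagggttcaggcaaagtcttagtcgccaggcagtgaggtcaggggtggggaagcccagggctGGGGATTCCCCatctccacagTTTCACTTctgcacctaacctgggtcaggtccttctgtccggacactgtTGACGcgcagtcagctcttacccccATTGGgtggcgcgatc
The NF-kB and interferon-type matches of *H2-K1* and *H2-D1* stood in nearly the same 30 bases, of which 29 were identical and 1 differed. These are printed from chr17:34000428-34000457 (minus strand) and chr17:35262924-35262953 (plus strand), with capitals marking the matches. The *H2-D1* stretch lay inside an exon annotated by GENCODE.
H2-K1 stretch: GGGATTCCCCatctccacagTTTCACTTct
H2-D1 stretch: GGGATTCCCCatctcctcagTTTCACTTct
*B2m*, *H2-K1*, and *H2-D1* each held all 4 of the interferon-type, NF-kB, CRE, and Y-box letters, as did 0.286% of the 32851 windows in the table (94 windows). In all 3 genes the CRE began 25 bases before the Y-box, a spacing found in 0.0578% of windows (19 windows). This spacing was read from *B2m* and searched only in the orientation of each window. The counted windows include those of the 3 genes, so the share is a description and not separate evidence.

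The antigen-processing genes did not carry this combination in their windows. A CRE was in the windows of 5 of 8 genes, adding *Tap1* and *Psmb9*, against 20.8% of all windows. A Y-box was in 6 of 8, adding *Tap1*, *Tapbp*, and *Psmb9*, against 37.4%. Interferon-type letters were in 23.9% of all windows and NF-kB letters in 20.7%, and among the 8 genes both occurred only in *B2m*, *H2-K1*, and *H2-D1*. The GAS letters, in 8.3% of all windows, occurred in *Psmb8* alone, shown in capitals at chr17:34198088-34198116 (plus strand), inside an annotated exon.
Psmb8: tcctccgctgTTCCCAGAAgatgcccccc
The *Psmb10* window held none of the searched letters. The 2 overlapping NF-kB matches in each of the 3 windows come from 1 palindrome-like site read on both strands. A match is a description of letters, and a window without one says nothing about the factor. *Tap1* and *Psmb9* start close together on opposite strands of chromosome 17, so their windows overlap. The CRE and the Y-box of these genes are the same bases, counted once for each gene.

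**Figure D1:**
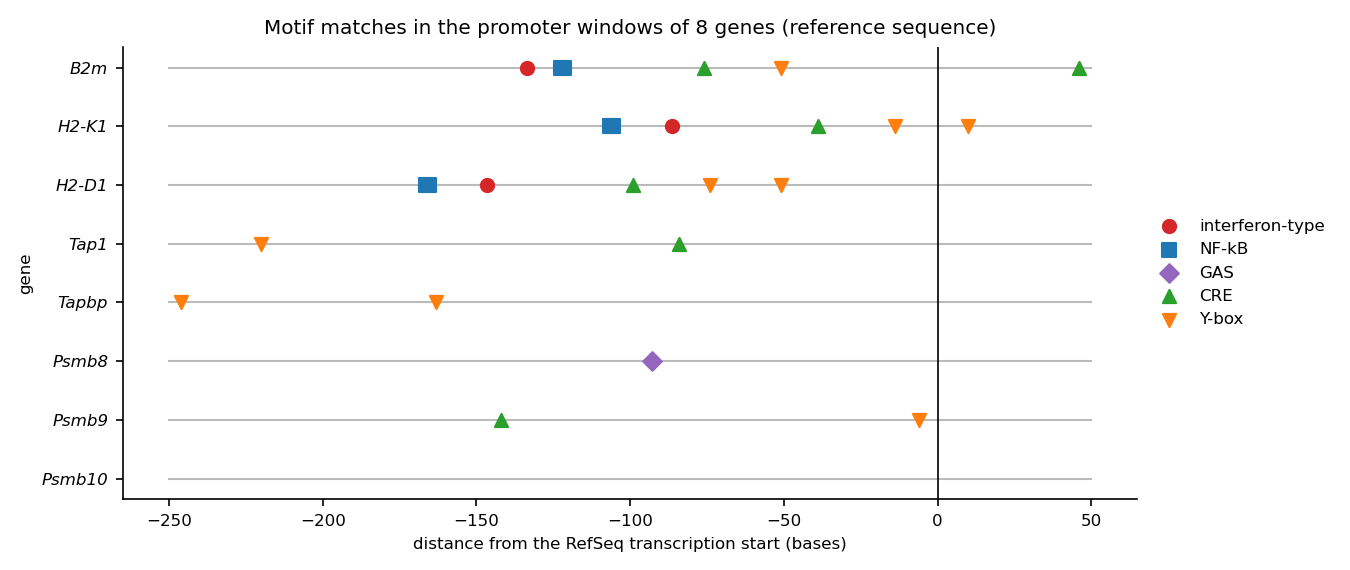
Motif matches (symbols, placed at their middle) in the 300-base RefSeq windows of the 8 genes that have one, with distance from the transcription start in bases on the x axis and 1 line for each gene. *B2m*, *H2-K1*, and *H2-D1* show the same NF-kB, interferon-type, CRE, and Y-box set, whereas *Psmb8* shows a GAS match only and *Psmb10* shows no match.

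The libraries held 5399700 to 11237474 counts assigned to genes and 14420 to 15644 genes with a count. All 8 hepatocyte markers had counts in every group, and their summed normalised count was 48381 to 62806 per library, although most of it came from keratins (*Krt8*, *Krt18*) and *Trf* and the mean *Alb* count was only 109 to 215 per group. Cholangiocyte markers summed to 3803 to 5550. In BOTH against CON, 3 of 8 hepatocyte markers (*Trf* at −0.28, *Serpina1a* at −0.35, and *Hnf4a* at −0.17 on the log2 scale) and 2 of 3 tested cholangiocyte markers (*Krt19* at −0.34 and *Krt7* at −0.49) fell, where 3.75% of all genes fell, while *Krt8* and *Krt18* were at 0.01 and 0.00, and their part in the changes of the class I genes was not tested. In BOTH against BMAL1, 4 of 8 and 2 of 3 fell, where 4.08% of all genes fell, and in CHREBP against CON 0 of 8 passed by DESeq2 or edgeR, with 3 unadjusted p under 0.05 by each, and *Krt7* of the 3 fell by DESeq2 alone. Leukocyte markers summed to at most 25.5, with *Adgre1*, *Cd3e*, and *Nkg7* at 0 in all groups, endothelial markers to at most 4.72, and stellate cell or fibroblast markers to at most 28.0, with *Col1a2*, *Pdgfrb*, and *Lrat* at 0. The silencing itself was partly resolved at this depth. *Arntl* had a mean normalised count of 44.7 ± 11.6 (SD, n = 4) in CON, 26.0 ± 4.82 in BMAL1, and 22.8 ± 6.64 in BOTH, and the test passed only in BOTH (log2 fold change −0.98, SE 0.28, *Padj* = 0.00994), since BMAL1 against CON gave −0.78 with an unadjusted p of 0.00496 and no adjusted value by the DESeq2 Wald test. *Mlxipl* had 35.6 ± 7.26 in CON, 25.9 ± 4.75 in CHREBP, and 17.0 ± 4.91 in BOTH, with *Padj* = 0.593 for CHREBP against CON (−0.46, SE 0.28) and *Padj* = 0.00762 for BOTH (−1.07, SE 0.30). Knockdown by each single esiRNA was not past the test in these counts, and the CHREBP and BMAL1 groups are named here by the esiRNA they received. The paper reports successful silencing of both genes from its transcriptome data and from quantitative PCR, which was not examined here.

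Across the 6 groups, the class I genes were highest in BOTH and next highest in CHREBP for each of the 10 genes, and the groups without *Chrebp* esiRNA lay well below. Together the 10 genes took 0.642% ± 0.105 (SD, n = 4) of gene counts in BOTH and 0.475% ± 0.0746 in CHREBP. Their share was 0.264% ± 0.0330 in CON and 0.233% ± 0.0109 in BMAL1, and it was 0.225% ± 0.00518 in BSA and 0.198% ± 0.00478 in PAL. *B2m* made up most of each share. Between neighbours in the order of means, the libraries of CON and CHREBP did not overlap for any gene except *Tapbp*, where 5.01% of all genes tested were higher in CHREBP without overlap. CHREBP and BOTH libraries overlapped for all but *H2-K1* and *Psmb10*, where 1.94% were higher in BOTH without overlap. All neighbours among BSA, PAL, BMAL1, and CON overlapped for *Tap2*, *Tapbp*, *Psmb8*, *Psmb9*, and *Nlrc5*, so that the order of neighbouring groups was within their spread. Groups further apart could still separate, as CON and PAL did for *Psmb8* and *Nlrc5* and PAL and BSA for *Tapbp*. In these bulk samples, a change in the number of cells that express a gene and a change in RNA per cell cannot be told apart.

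**Figure D2:**
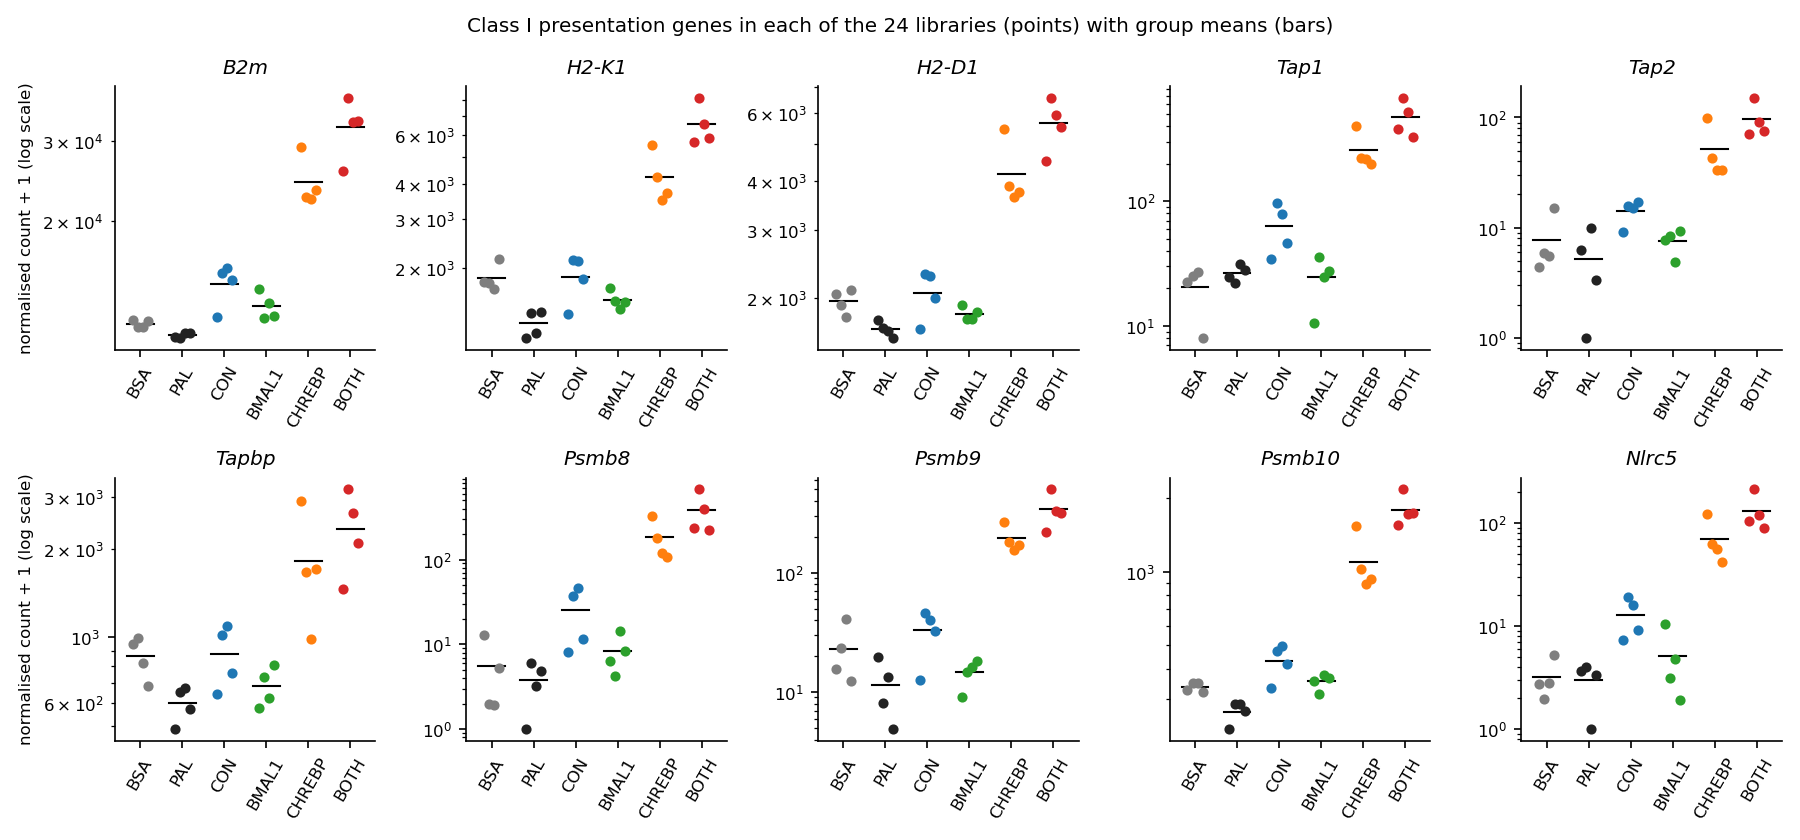
Normalised counts plus 1 (log y axis) of each of the 10 genes in the 24 libraries, with points for libraries and bars for the means of 4 libraries, by group on the x axis. All CHREBP and BOTH libraries lie above all CON libraries for 9 genes, and for *Tapbp* 1 CHREBP library (990) lies below the highest CON library (1090).

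With both esiRNAs the entire set was higher. Every one of the 10 genes rose in BOTH against CON, with no overlap between the groups, where 6.42% of all genes tested were higher in BOTH without overlap. The changes ran from 2.20-fold for *B2m* to 15.3-fold for *Psmb8*. A gene was counted as changed at *Padj* under 0.1 in the DESeq2 Wald test. The median log2 fold change of the 10 genes was 2.46, against −0.01 over all 13883 genes tested, of which 5.99% rose and 3.75% fell. The share of reads not aligned also differed, at 26.73% to 27.47% in CON, 25.77% to 26.66% in CHREBP, and 24.91% to 26.27% in BOTH, lowest in BOTH replicate 2, and its part in these results was not tested. For the light chain, *B2m* normalised counts were 12353, 15430, 15845, and 14855 in the CON libraries, 29129, 22621, 22445, and 23379 in CHREBP, and 25733, 37243, 32926, and 33109 in BOTH. All BOTH and CHREBP libraries exceeded the highest CON library. *B2m* changed by 1.14 on the log2 scale (SE 0.10, *Padj* = 4.92e-25).

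Both heavy chains followed the light chain. *H2-K1* counts were 1358, 2126, 2114, and 1826 in CON and 5673, 8133, 6577, and 5829 in BOTH, a log2 fold change of 1.82 (SE 0.17, *Padj* = 1.45e-22). *H2-D1* counts were 1658, 2309, 2283, and 2004 in CON and 4519, 6552, 5938, and 5519 in BOTH, a change of 1.44 (SE 0.12, *Padj* = 1.99e-28). The lowest BOTH library was above the highest CON library by a wide margin for each chain. The ratio of *H2-K1* to *H2-D1* counts within a library was 0.894 ± 0.0503 (SD, n = 4) in CON, 1.01 ± 0.0543 in CHREBP, and 1.17 ± 0.0985 in BOTH, against 0.936 ± 0.0676 in BSA and 0.762 ± 0.108 in PAL. Because the heavy chains are close copies and the handling of shared reads is not stated, their split is uncertain. Their summed count rose by 1.63 on the log2 scale in BOTH against CON, and it gave the same call as the separate genes in every comparison.

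The peptide transporter and tapasin rose with the chains. *Tap1* counts were 33.2, 95.1, 77.3, and 45.2 in CON and 376, 671, 521, and 325 in BOTH (log2 fold change 2.91, SE 0.39, *Padj* = 1.66e-11). *Tap2* was at 8.08 to 16.2 in CON and 69.7 to 149 in BOTH (2.86, SE 0.37, *Padj* = 1.15e-12), resting on 62 summed reads in CON and 388 in BOTH. The ranges of both transporter genes were separated by several times the CON level. *Tapbp*, the bridge between transporter and class I molecule, had counts of 639, 1016, 1090, and 758 in CON and 1458, 3178, 2639, and 2091 in BOTH, with a change of 1.42 (SE 0.31, *Padj* = 1.85e-04).

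The largest log2 fold changes of the set were those of *Psmb8*, *Nlrc5*, and *Psmb9*, while the third immunoproteasome gene, *Psmb10*, changed less than the transporter genes. *Psmb8* counts were 7.18, 35.7, 45.2, and 10.4 in CON and 235, 671, 394, and 221 in BOTH (3.93, SE 0.61, *Padj* = 1.07e-08). *Psmb9* counts were 11.7, 45.2, 39.5, and 31.3 in CON and 217, 497, 326, and 313 in BOTH (3.39, SE 0.36, *Padj* = 1.75e-18). *Psmb10* counts were 332, 471, 495, and 420 in CON and 1555, 2167, 1715, and 1739 in BOTH (2.06, SE 0.18, *Padj* = 1.37e-26). For all 3 immunosubunits, the lowest BOTH library was above the highest CON library. *Nlrc5*, the class I transactivator, had counts of 6.28, 18.2, 14.8, and 8.12 in CON and 103, 209, 119, and 87.4 in BOTH (3.43, SE 0.49, *Padj* = 3.68e-10). Since *Tap1* and *Psmb9*, *B2m* and *Patl2*, and *Tapbp* and *Zbtb22* overlap in the annotation and the use of strand in counting is not stated, reads could be shared between these pairs.

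*Chrebp* esiRNA alone, at 100 nM against 200 nM in CON, gave the same direction with smaller values. All 10 genes rose in CHREBP against CON, with a median log2 fold change of 1.64, where 2.65% of all genes rose and 0.771% fell. The chains rose by 0.74 for *B2m* (SE 0.10, *Padj* = 7.44e-10), 1.19 for *H2-K1* (SE 0.18, *Padj* = 4.70e-09), and 1.02 for *H2-D1* (SE 0.12, *Padj* = 3.51e-13). *Tap1* counts in CHREBP were 398, 219, 216, and 199, a change of 2.03 (SE 0.39, *Padj* = 2.86e-05). *Tap2* rose by 1.93 (SE 0.37, *Padj* = 2.73e-05), and *Nlrc5*, at 41.0 to 120 counts, rose by 2.52 (SE 0.50, *Padj* = 4.16e-05). *Psmb8* counts were 330, 178, 119, and 106, a change of 2.88 (SE 0.62, *Padj* = 2.29e-04). *Psmb9* rose by 2.58 (SE 0.36, *Padj* = 6.31e-10) and *Psmb10* by 1.35 (SE 0.18, *Padj* = 1.33e-10). Replicate 1 was the highest CHREBP library for all 10 genes. *Tapbp*, with CHREBP counts of 2902, 1666, 990, and 1708, was the only gene whose groups overlapped (1.05, SE 0.31, *Padj* = 0.0268). Its call was lost without CHREBP replicate 1 (0.73, *Padj* = 0.208), CON replicate 1 (0.93, *Padj* = 0.150), or CON replicate 4 (0.99, *Padj* = 0.124). The mean *Mlxipl* count was lower in CHREBP than in CON without passing the test, as given above, and its part in these changes was not tested.

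With *Bmal1* esiRNA alone, at 100 nM against 200 nM in CON, no gene of the set passed the test. All 10 log2 fold changes were negative in BMAL1 against CON, with a median of −0.69, and the groups overlapped for each gene, where 2.82% of all genes tested were lower in BMAL1 without overlap. DESeq2 counted 0 of the 10 genes as changed, where 0.166% of all genes rose and 0.324% fell, and 5 of the 10 had an unadjusted p under 0.05, while the edgeR quasi-likelihood test also counted 0, with 4 under 0.05 unadjusted. *Tap1*, with BMAL1 counts of 9.50, 35.1, 23.9, and 26.5, came closest (−1.39, SE 0.42, *Padj* = 0.105). *Psmb9*, with 8.15, 13.8, 15.3, and 17.4, gave −1.21 (SE 0.41, *Padj* = 0.215), and *Psmb8*, with 5.43, 3.19, 13.4, and 7.31, gave −1.75 (SE 0.67, *Padj* = 0.374). *Nlrc5* gave −1.66 and *Tap2* −1.02, neither with an adjusted value. The more abundant genes differed little, with *B2m* at −0.16 (95% interval −0.37 to 0.04) and *H2-K1* at −0.28 (−0.63 to 0.06). CON replicate 1 was the lowest CON library for all 10 genes. Without it, *Tap1* (−1.60, *Padj* = 0.0242) and *Psmb9* (−1.48, *Padj* = 0.00111) fell, where 85 of 13777 genes fell. A fit of all 24 libraries counted 1 member as lower, *Tap1*, and 59 of 14511 genes.

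With *Chrebp* esiRNA present, the values were higher, not lower, when *Bmal1* esiRNA was added. These libraries share 1 column of the layout, but the total dose was 200 nM in BOTH and 100 nM in CHREBP. All 10 log2 fold changes were positive in BOTH against CHREBP, with a median of 0.76, and 4 of the 10 genes rose, where 0.843% of all genes rose and 0.151% fell. The 4 genes were *B2m* (0.40, SE 0.10, *Padj* = 0.0217), *H2-K1* (0.63, SE 0.17, *Padj* = 0.0410), *H2-D1* (0.43, SE 0.12, *Padj* = 0.0552), and *Psmb10* (0.71, SE 0.18, *Padj* = 0.0190). The edgeR test counted 3 of the 10 genes, without *H2-D1* (edgeR *Padj* = 0.174). *H2-D1* also did not pass with no filter on low counts or with only the groups compared. *H2-K1* counts were 5515, 4215, 3494, and 3695 in CHREBP, all under the lowest BOTH library at 5673. *Psmb10* counts were 1543, 1021, 893, and 930 in CHREBP, and the lowest BOTH library was at 1555. The groups overlapped for the other 8 genes. *Tap1* at 0.88 (*Padj* = 0.428), *Psmb8* at 1.05 (*Padj* = 0.653), *Psmb9* at 0.81 (*Padj* = 0.391), *Nlrc5* at 0.91 (*Padj* = 0.578), and *Tapbp* at 0.37 (*Padj* = 0.828) did not pass, and *Tap2* at 0.92 had no adjusted value. BOTH replicate 2 was the highest BOTH library for all 10 genes, and without it 0 genes passed. The count was 1 without CHREBP replicate 2, 3, or 4, 2 without BOTH replicate 3 or 4, and 6 without CHREBP replicate 1, when *Tap2* and *Nlrc5* were added.

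**Figure D3:**
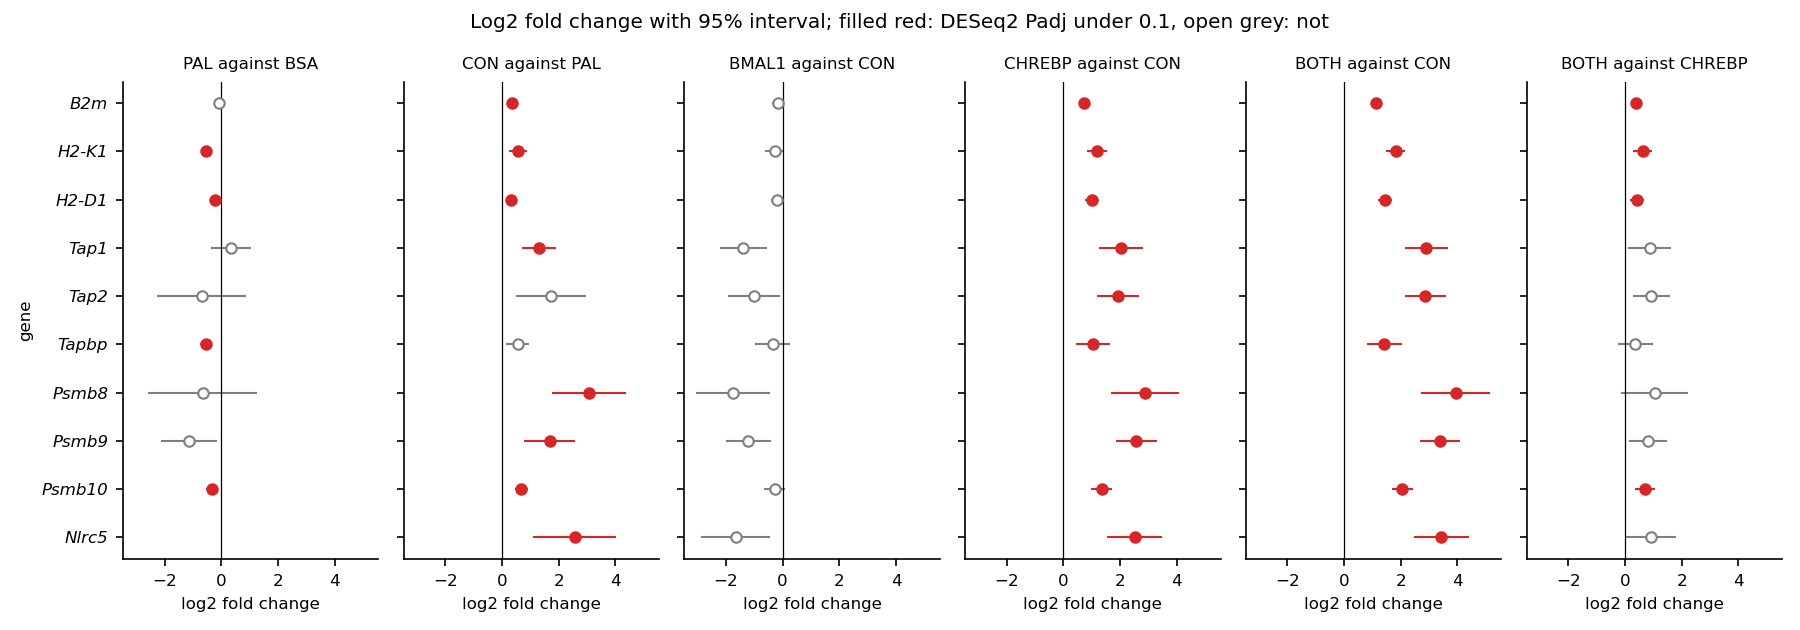
Log2 fold change (x axis) with its 95% interval for each of the 10 genes (y axis) in 6 comparisons, with filled red points for *Padj* under 0.1 and open grey points otherwise. All 10 points are filled and right of 0 in CHREBP against CON and BOTH against CON, and all 10 are open and left of 0 in BMAL1 against CON.

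The interaction of the esiRNAs was positive for most of the set. It sets the 200 nM groups (BOTH and CON) against the 100 nM groups (CHREBP and BMAL1), so it cannot be told apart from a difference by total dose. The interaction, computed as BOTH minus CHREBP less BMAL1 minus CON on the log2 scale, was positive and past the test for 8 of the 10 genes, where it was so for 1.2% of all genes tested and negative for 0.267%. It was 0.57 for *B2m* (SE 0.15, *Padj* = 0.0172), 0.91 for *H2-K1* (SE 0.25, *Padj* = 0.0248), and 0.61 for *H2-D1* (SE 0.18, *Padj* = 0.0379). Among processing genes it was 2.27 for *Tap1* (SE 0.57, *Padj* = 0.0125), 2.80 for *Psmb8* (SE 0.90, *Padj* = 0.0918), 2.03 for *Psmb9* (SE 0.54, *Padj* = 0.0201), and 0.99 for *Psmb10* (SE 0.26, *Padj* = 0.0181). *Nlrc5* had 2.56 (SE 0.77, *Padj* = 0.0566), *Tapbp* 0.72 (SE 0.44, *Padj* = 0.694), and *Tap2* 1.94 with no adjusted value. The edgeR test counted 5 of the 10 genes. Without CON replicate 2 or 3 the count was 4, and without BMAL1 replicate 2, BOTH replicate 2, or CHREBP replicate 2, 3, or 4 it was 5, while *B2m*, *Tap1*, *Psmb9*, and *Psmb10* passed whichever library was left out. With a replicate block in DESeq2, *B2m* (0.56, *Padj* = 0.204), *H2-D1*, and *Psmb8* did not pass, and *Nlrc5* had no adjusted value.

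Set against BMAL1 rather than CON, all 10 genes rose in both groups with *Chrebp* esiRNA. The median log2 fold change was 3.11 in BOTH against BMAL1, where 6.35% of all genes rose and 4.08% fell, and 2.29 in CHREBP against BMAL1, where 2.9% rose and 0.915% fell. *Psmb8* was the far end of the range in each, at 5.68 (SE 0.66, *Padj* = 6.23e-16) and 4.63 (SE 0.66, *Padj* = 3.25e-10), and *B2m* the near end, at 1.30 (SE 0.10, *Padj* = 4.08e-33) and 0.90 (SE 0.10, *Padj* = 1.55e-15). Over the 4 esiRNA groups together, a likelihood ratio test counted 10 of the 10 genes, where it counted 9.92% of all genes. These comparisons share libraries with those above and are not separate evidence.

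Palmitate without transfection went the other way for part of the set. In PAL against BSA, 4 of the 9 genes tested fell and 0 rose by DESeq2 or edgeR, where 7.6% of the 12827 genes tested fell and 6.65% rose, and 5 of the 9 had an unadjusted p under 0.05, all negative. *H2-K1* counts were 1769, 1761, 1671, and 2154.5 in BSA and 1119, 1369, 1165, and 1388 in PAL, and *H2-K1* fell by 0.53 on the log2 scale (SE 0.09, *Padj* = 4.76e-08). *Tapbp* counts were 947, 992, 821, and 682 in BSA and 487, 654, 672, and 570 in PAL, and *Tapbp* also fell by 0.53 (SE 0.11, *Padj* = 7.38e-05). The groups did not overlap for these genes or for *B2m*, *H2-D1*, and *Psmb10*, where 8.24% of all genes tested were lower in PAL without overlap. *H2-D1* fell by 0.23 (SE 0.06, *Padj* = 0.00517) and *Psmb10* by 0.33 (SE 0.11, *Padj* = 0.0212). *B2m* libraries stood at 11745 to 12176 in BSA and 11136 to 11408.5 in PAL, but its difference of −0.08 was not past the test (*Padj* = 0.271). *Psmb9* (−1.14, *Padj* = 0.133), *Tap1* (0.35, *Padj* = 0.662), and *Tap2* (−0.69, *Padj* = 0.704) did not pass, *Psmb8* had no adjusted value, and *Nlrc5*, with 8 summed reads in each group, was under the count minimum. Among hepatocyte markers, *Alb* (−0.97), *Trf* (−0.58), *Ttr* (−0.30), and *Serpina1a* (−0.24) fell and *Krt8* (0.37) and *Krt18* (0.45) rose in the same comparison, as did the cholangiocyte marker *Krt19* (0.53), while *Des*, of 2 stellate cell or fibroblast markers tested, fell. Their part in the class I result was not tested. The median over the 9 class I genes was −0.53, against 0.00 over all genes. Fitting all 24 libraries at once left 1 gene, *H2-K1*, past the test, with fold changes of like size.

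Transfection with control esiRNA, on the same palmitate background, was accompanied by higher values. In CON against PAL, 8 of the 10 genes rose, with a median log2 fold change of 0.99, where 1.59% of the 12928 genes tested rose and 0.92% fell. *B2m* rose by 0.37 (SE 0.06, *Padj* = 4.24e-06), *H2-K1* by 0.56 (*Padj* = 0.0325), *H2-D1* by 0.31 (SE 0.08, *Padj* = 0.0170), and *Psmb10* by 0.69 (SE 0.12, *Padj* = 6.17e-06). *Tap1* counts were 23.8, 21.1, 30.2, and 27.2 in PAL, all under the CON libraries, and *Tap1* rose by 1.30 (SE 0.31, *Padj* = 0.00305). *Psmb9* rose by 1.68 (SE 0.46, *Padj* = 0.0182). The groups did not overlap for *B2m*, *Tap1*, *Psmb8*, *Psmb10*, and *Nlrc5*, where 4.18% of all genes were higher in CON without overlap. Of the hepatocyte markers, *Alb* rose (0.63) and *Krt18* fell by 0.15 on the log2 scale, and of the cholangiocyte markers *Sox9* rose (0.20, by DESeq2 but not edgeR), and their part in the class I result was not tested. The scarcest class I genes rested on few reads. *Psmb8* had 12 summed reads in PAL and 125 in CON, a depth-scaled ratio of 8.82 (exact 95% interval 4.87 to 17.5, counting error only), and it rose by 3.08 (SE 0.67, *Padj* = 6.69e-04). *Nlrc5* had 8 and 59 summed reads, a ratio of 6.24 (2.97 to 15.1), and it rose by 2.57 (SE 0.74, *Padj* = 0.0334). *Tap2*, with 15 and 62 reads, had a ratio of 3.50 (1.97 to 6.62) and did not pass (*Padj* = 0.166), nor did *Tapbp* at 0.55 (*Padj* = 0.175). The count of 8 fell to 3 without CON replicate 2, 4 without CON replicate 3, and 5 without PAL replicate 4. These comparisons share the PAL libraries, and BSA was not transfected, so no group shows transfection without palmitate.

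The immunoproteasome moved without its constitutive counterparts. *Psmb5*, *Psmb6*, and *Psmb7* passed the DESeq2 test in none of the comparisons made here. In CON against PAL, 0 of the 3 passed by DESeq2 or edgeR, with 1 unadjusted p under 0.05 by each tool (*Psmb6*, at −0.15), and in the other comparisons neither tool gave an unadjusted p under 0.05. Their log2 fold changes in BOTH against CON were 0.09, 0.05, and 0.10. For each immunosubunit, reads were set against those of the subunit it replaces, a ratio that is comparable between groups but is not a count of assembled subunits. *Psmb8* had 1.91 ± 1.38 reads per 100 reads of *Psmb5* (SD, n = 4) in CON, 14.0 ± 6.88 in CHREBP, and 29.6 ± 19.0 in BOTH, against 0.217 to 0.552 in BSA, PAL, and BMAL1. *Psmb9* had 1.31 ± 0.567 per 100 of *Psmb6* in CON, 7.65 ± 1.86 in CHREBP, and 13.8 ± 5.27 in BOTH. *Psmb10* had 31.2 ± 3.01 per 100 of *Psmb7* in PAL, 52.2 ± 10.8 in CON, 134 ± 36.1 in CHREBP, and 203 ± 33.0 in BOTH. Every CHREBP and BOTH library was above every library of the other groups in each of the 3 ratios. Of the 12 other core proteasome genes tested, 2 rose in BOTH against CON, *Psma4* (0.24) and *Pomp* (0.25, the proteasome assembly chaperone), where 5.99% of all genes rose, and 0 passed in CHREBP against CON by DESeq2 or edgeR, where 0 had an unadjusted p under 0.05 by either tool. In BOTH against CON, 5 of the 12 had an unadjusted p under 0.05 by DESeq2, and edgeR counted 1 as higher.

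**Figure D4:**
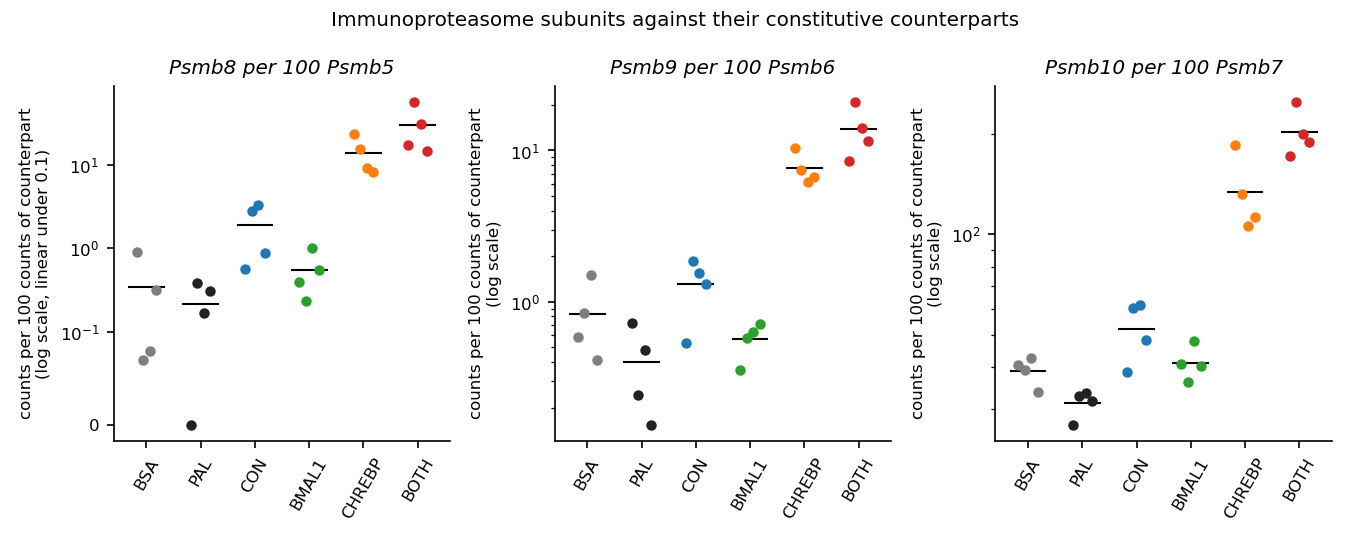
Reads of each immunoproteasome subunit per 100 reads of the constitutive subunit it replaces (y axis, log scale, linear under 0.1 for *Psmb8*), by group on the x axis, with points for libraries and bars for means of 4. CHREBP and BOTH libraries lie above all others, at means of 14.0 and 29.6 for *Psmb8*, 7.65 and 13.8 for *Psmb9*, and 134 and 203 for *Psmb10*.

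Other genes of the pathway changed in part. In the PA28 activator, which opens the proteasome core, *Psme1* rose by 0.65 in CHREBP and 0.97 in BOTH against CON and *Psme2* by 0.66 and 1.04, while *Psme3*, which encodes a nuclear activator, was at 0.00 and −0.01. *Psme2* also had a positive interaction (0.57, SE 0.14, *Padj* = 0.0131). Among 6 loading and trimming genes, 2 rose in each of these comparisons, where 2.65% and 5.99% of all genes rose, of which *Erap1*, the aminopeptidase that trims peptides in the endoplasmic reticulum, changed by 0.59 (*Padj* = 0.00321) and 0.93 (*Padj* = 9.53e-09). The general chaperones *Calr*, *Canx*, and *Pdia3* and the aminopeptidase gene *Lnpep* did not pass in either. Of 11 other class I chains tested, 5 rose in CHREBP and 7 in BOTH against CON, where 2.65% and 5.99% of all genes rose, and edgeR counted 3 and 7. *H2-T23*, which encodes the Qa-1 chain, rose by 1.51 and 2.20, from 47.6 to 112 counts in CON to 174 to 384 in CHREBP and 310 to 536 in BOTH, and *H2-T10*, annotated as a polymorphic pseudogene, by 1.11 and 1.90. Multiple class I genes are near-identical copies, so their separate counts are uncertain.

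Part of the regulators of the promoters rose. Of 13 genes for RFX, NF-Y, CREB, IRF, STAT, and NF-kB proteins, 6 rose in CHREBP against CON, 7 in BOTH against CON, and 3 in CON against PAL, where 2.65%, 5.99%, and 1.59% of all genes rose. The edgeR test counted 5, 7, and 3. *Stat2*, which carries type I interferon signals to the nucleus, had counts of 192, 430, 396, and 335 in CON, 1524, 1048, 870, and 997 in CHREBP, and 1487, 2093, 2058, and 1648 in BOTH. Its CHREBP and BOTH libraries all exceeded the CON libraries, of which replicate 1 was the lowest, as for the class I genes. *Stat2* rose by 1.71 in CHREBP (SE 0.23, *Padj* = 1.41e-10) and 2.42 in BOTH (SE 0.23, *Padj* = 9.42e-23) against CON, and it was at −0.50 in BMAL1 (SE 0.24, *Padj* = 0.577). Its interaction was positive and past the test (1.22, SE 0.33, *Padj* = 0.0245). *Irf1*, a direct activator of class I promoters, rose by 0.86 and 1.31 in CHREBP and BOTH, and *Irf9*, which encodes the DNA-binding subunit of the type I interferon complex, by 0.94 and 1.11. The other called genes were *Rfx5*, which encodes a subunit of the factor beside the CRE (0.60 and 0.73), *Irf2*, an IRF family member (0.54 and 0.82), and *Rela* (0.18 and 0.23), with *Nfkb1* in BOTH alone (0.14 and 0.31). The last pair encode NF-kB subunits, and these 4 genes were named after their values were seen.

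**Figure D5:**
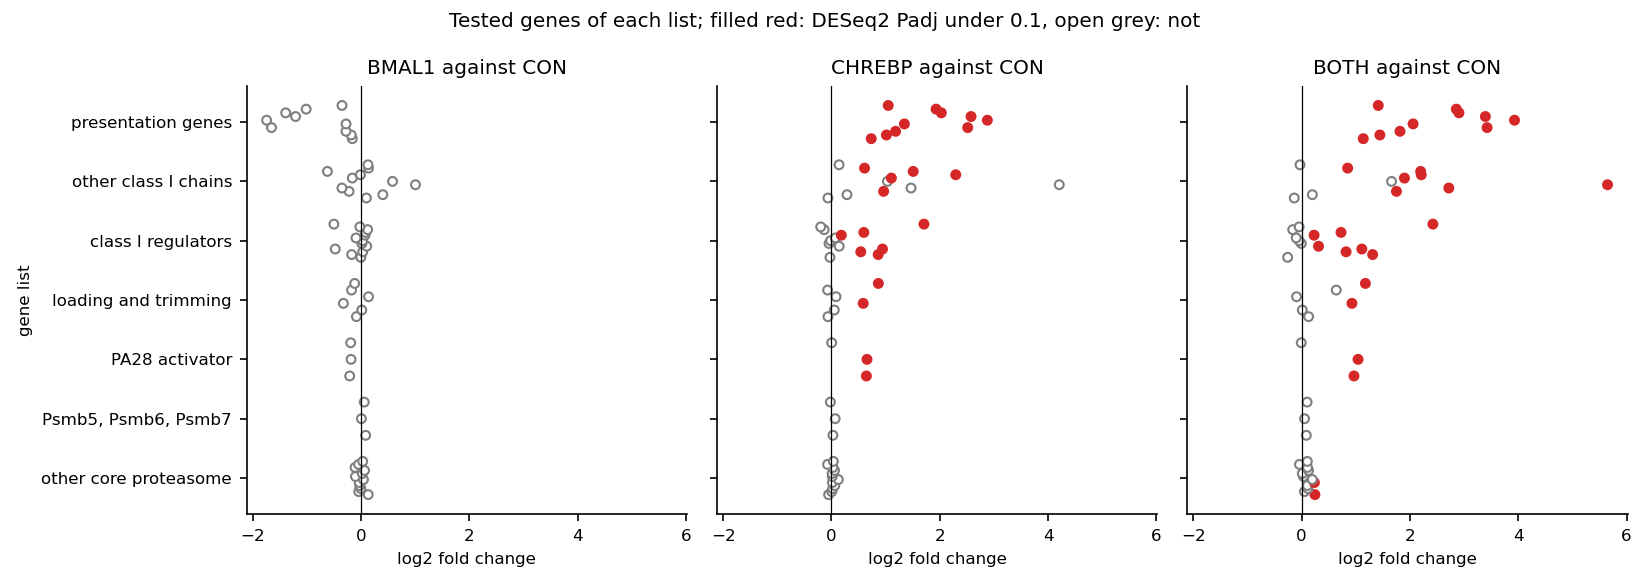
Log2 fold change (x axis) of every tested gene of 7 lists (y axis) in BMAL1, CHREBP, and BOTH against CON, with filled red points for *Padj* under 0.1. The presentation genes and many of the other class I chains and regulators lie right of 0 in CHREBP and BOTH, and *Psmb5*, *Psmb6*, and *Psmb7* lie at 0.05 to 0.10 in BOTH.

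Reads of interferon genes and of class II genes were few. *Ifnb1*, which encodes interferon beta, had 77 summed reads in BOTH, 17 in CHREBP, 5 in CON, 1 in PAL, and 0 in BSA and BMAL1, and it passed the test in BOTH against CON (4.21, SE 0.90, *Padj* = 1.01e-04). Its counts per library were 9.96, 32.7, 13.9, and 18.2 in BOTH and at most 8.86 elsewhere. The 6 other interferon genes had at most a few reads in any group, and *Ifna1* and *Ifng* were at 0 in all. *Ifnb1* was thus highest in the same group, and in the same BOTH replicate 2, as the class I genes, and its part in their changes was not tested. Of 7 class II genes, only *H2-DMa* was steadily counted, at means of 40.6 to 55.4 per group, and it did not pass in any comparison.

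Over the 24 libraries, the genes whose profile was most like the mean profile of the 10 members were *Ifi35* (Pearson r = 0.994), *Ifi47* (0.994), *Helz2* (0.994), *Tor3a* (0.994), and *Nampt* (0.993), among 9372 genes with a mean count of at least 50. These correlations describe libraries that share groups and depth. Each member against the mean of the others gave r from 0.916 for *Tap2* to 0.988 for *Psmb10*. When the group means were subtracted, so that only the deviations of libraries within groups remained, r was still 0.906 for *H2-D1*, 0.862 for *Psmb10*, and 0.834 for *B2m*, and 0.258 for *Tap2* on the scale of log2(normalised count + 1). With a variance stabilizing transformation, the values for the scarcer genes were 0.734 for *Tap2*, 0.776 for *Nlrc5*, and 0.882 for *Psmb8*, against 0.258, 0.300, and 0.434 on the first scale.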

How the data were processed

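BRB-seq was performed on total RNA of AML-12 cells (MERCURIUS kit). Per the labels and the study's methods, the authors demultiplexed reads with BRB-seq tools, aligned them to mm10 with STAR, and deposited whole-number counts per gene from HTSeq, with featureCounts also named. Versions, annotation, strand use, and handling of molecular identifiers are not given in the sources used here. Of the sum of reads not aligned, reads in no gene, and reads counted to genes, 24.9% to 28.0% were not aligned and 5.11% to 6.47% fell in no gene. These rows were left out, and any other class of read is not in that sum. Reads from 3′ ends do not scale with gene length, and 3 counts corresponded to 0.267 to 0.556 CPM. Intervals of summed-read ratios cover counting error only, and those of log2 fold changes come from the DESeq2 standard error, which includes the spread between libraries.

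Normalised counts are deposited counts divided by DESeq2 size factors over 24 libraries (R 4.3.3, DESeq2 1.42.0). Genes with a summed count under 25 in the fitted libraries were left out. Wald tests with Benjamini-Hochberg adjustment (*Padj* under 0.1) were fitted on 8 libraries for PAL against BSA and CON against PAL and on the 16 esiRNA libraries together for the others. Where DESeq2 set no adjusted p-value, none is given. Tests were checked on counts simulated from the fitted dispersions, with changes only in genes above a minimum mean count. That check covered neither the scarcest genes nor the interaction. Alternatives were edgeR 4.0.16 with TMM, a replicate block, other filters, *Padj* under 0.05, other sets of libraries, and leaving out each library. All 10 members were named, with *Psmb5*, *Psmb6*, and *Psmb7*, and up to 3 genes per list with the largest change in BOTH against CON, *Padj* under 0.1, and a mean count of at least 50. A gene of the regulator list and another of the leukocyte markers are not reported here and are left out of their lists. Members, lists, and motif letters were chosen with earlier results of these data or the windows known. Promoter windows are from RefSeq (GRCm38.p6) and gene positions from GENCODE on the same build. Python 3.11.15, pandas 2.3.3, SciPy 1.17.1, and matplotlib 3.10.9 were used.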

Additional observations from a re-analysis of the deposited data

Results flagged for a closer look

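In 60 tests of a gene within a group of 4 libraries, 5 library values, from 2 libraries, stood apart by Dixon's criterion at its 95% level, where chance marks about 1 group in 20. CHREBP replicate 1 stood above the other CHREBP libraries for *B2m* (29129 normalised counts), *H2-D1* (5447), *Tap1* (398), and *Tap2* (97.5). BSA replicate 4 stood above the other BSA libraries for *Tap2* (14.1 normalised counts, from 10 reads).

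The interaction of *Bmal1* and *Chrebp* esiRNA in the DESeq2 fit was positive and past the test for 8 genes, where it was so for 1.2% of all genes tested. The edgeR test counted 5, and fewer than 8 passed with a replicate block, as given below. The interaction cannot be told apart from a difference between total esiRNA doses of 200 and 100 nM. The interaction was 0.57 for *B2m*, 0.91 for *H2-K1*, 0.61 for *H2-D1*, 2.27 for *Tap1*, 2.80 for *Psmb8*, 2.03 for *Psmb9*, 0.99 for *Psmb10*, and 2.56 for *Nlrc5* on the log2 scale.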

How the results depend on the processing

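Fold changes of the 10 genes kept their direction under all alternatives, and no result reversed. All 10 genes passed in BOTH against CON, BOTH against BMAL1, and CHREBP against BMAL1 under each, in the likelihood ratio test by DESeq2, edgeR, and with a replicate block, and 9 or 10 in CHREBP against CON. With all 24 libraries in 1 fit, 1 gene rather than 4 fell in PAL against BSA and 1 rather than 0 fell in BMAL1 against CON. Leaving out 1 library gave 3 to 9 genes higher in CON against PAL (8 in the full set), 0 to 2 lower in BMAL1 against CON, 0 to 6 higher in BOTH against CHREBP (4), and 4 to 9 with a positive interaction (8). The edgeR test gave 5 for the interaction. The cause of these shifts was not tested. With a variance stabilizing transformation, 3 of the 5 genes with the most similar profile remained.

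Replicate numbers did not pair the libraries, since deviations from the group means correlated between same-numbered libraries by −0.03 to 0.09 on average over 11367 genes. A replicate block gave 2 genes higher in BOTH against CHREBP, without *B2m* (0.40, *Padj* = 0.208) and *H2-D1* (0.42, *Padj* = 0.356). It gave 4 with a positive interaction, without *B2m* (0.56, *Padj* = 0.204), *H2-D1* (0.60, *Padj* = 0.324), and *Psmb8* (2.46, *Padj* = 0.197), and with no adjusted value for *Nlrc5*. In CON against PAL it gave 6, losing *H2-D1* (*Padj* = 0.506), *Psmb9* (*Padj* = 0.136), and *Nlrc5* (*Padj* = 0.207) and adding *Tapbp* (0.54).

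Counts over all genes changed between settings. With the block, PAL against BSA gave 539 higher and 649 lower (853 and 975 without) and CON against PAL 132 and 54 (206 and 119). BMAL1 against CON gave 23 and 45, but 4 and 10 with edgeR, 6 and 16 with the block, 6 and 21 at *Padj* under 0.05, 35 and 59 with all 24 libraries, and 70 and 74 with only its 2 groups. With only the 2 groups compared, CHREBP against CON gave 427 and 184 (368 and 107), BOTH against CON 670 and 305 (831 and 520), BOTH against CHREBP 75 and 5 (117 and 21), and BOTH against BMAL1 676 and 297 (882 and 566). At *Padj* under 0.05, BOTH against CON gave 338 lower, BOTH against CHREBP 67 and 10, CHREBP against BMAL1 67 lower, and the interaction 16 negative. With edgeR, BOTH against CHREBP gave 48 and 5, CHREBP against BMAL1 74 lower (127), and the interaction 113 positive and 9 negative (167 and 37), and with the block BOTH against CHREBP gave 90 and 10. Leaving out 1 library gave 620 to 755 higher and 735 to 849 lower in PAL against BSA, 119 to 203 and 61 to 140 in CON against PAL, 4 to 22 and 11 to 85 in BMAL1 against CON, 266 to 340 and 56 to 99 in CHREBP against CON, 694 to 917 and 355 to 644 in BOTH against CON, 49 to 182 and 7 to 64 in BOTH against CHREBP, 747 to 973 and 390 to 741 in BOTH against BMAL1, 291 to 413 and 59 to 106 in CHREBP against BMAL1, and 88 to 240 and 13 to 91 for the interaction. Depth limits the scarce genes, with *Nlrc5* at 0 to 3 reads per library in BSA and PAL.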

Other observations

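Outside the 10 genes, 3 presentation genes were lower with palmitate. In PAL against BSA, 2 of 9 other class I chains and 1 of 2 class II genes tested fell, where 7.6% of all genes fell, while none of the 6 loading and trimming genes passed by DESeq2 or edgeR, with 1 unadjusted p under 0.05 by each, and of the 3 PA28 genes 0 passed by DESeq2, with none under 0.05 unadjusted, and 1 was lower by edgeR. *Cd1d1*, which encodes a lipid-presenting class I-like chain, fell by 0.44 on the log2 scale in PAL against BSA (*Padj* = 0.00203, DESeq2), and *Mr1*, which encodes the chain that presents vitamin metabolites, fell by 0.46 (*Padj* = 0.0260). *Cd74*, the class II invariant chain, had 22.3, 21.3, 15.3, and 15.6 normalised counts in BSA and 0 to 2.01 in PAL, and it fell by 4.22 (SE 0.85, *Padj* = 2.93e-05), with means of 2.82 to 6.72 in the esiRNA groups. These 3 genes were named after their values were seen.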
